A study of Homo sapiens with 10 samples.

Results

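The genes described here are the SNAI, TWIST and ZEB transcription factors (SNAI1, SNAI2, SNAI3, TWIST1, TWIST2, ZEB1 and ZEB2) and 3 classical cadherins (CDH1, CDH2 and CDH3). They were chosen by symbol in the probe annotation of the array, and all 10 of 10 had a probe set, 1 each, among the 18569 probe sets measured. RNA came from A375, an established human melanoma line with an activating BRAF mutation, on Clariom S arrays with 1 array per sample. The 5 control arrays came from cells plated without doxycycline, and the 5 doxycycline arrays from cells that received 2 µg/ml doxycycline at plating, and all cells were taken on day 4. The series title names Omomyc, a dominant-negative fragment of MYC that doxycycline usually switches on in such systems, but the labels describe neither the construct, its promoter nor the clone. No array analysed here is doxycycline-treated A375 without Omomyc, so an effect of the drug itself cannot be told apart from one of Omomyc in any difference below. The labels call the arrays of a group biological replicas without saying what separates them, so the spread behind each p-value is that between these samples and may be technical.

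The SNAI, TWIST and ZEB proteins are repressors, or in the case of TWIST mainly activators, that bind E-box DNA and drive epithelial-mesenchymal transition, the loss of epithelial junctions and gain of motility. Their best known target is CDH1, the gene of E-cadherin, which they silence while CDH2, the gene of N-cadherin, is gained. In the melanocyte lineage the roles are divided differently: ZEB2 and SNAI2 belong to the differentiated, neural-crest-derived cell, ZEB1 and TWIST1 are typical of dedifferentiated and invasive melanoma, and CDH1 holds normal melanocytes to keratinocytes.

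After 4 days of doxycycline 5 of the 10 genes passed the test, all of them transcription factors, and none of the 3 cadherins did. Of the cadherins only CDH2 had signal above the background range described below, so the counts do not set factors apart from cadherins. SNAI2 fell 2.91-fold, and TWIST1 fell 1.23-fold. ZEB2 rose 1.53-fold, SNAI1 1.35-fold and ZEB1 1.28-fold. A gene was called at an adjusted p under 0.05, from limma across all probe sets with Benjamini-Hochberg adjustment, and by that rule 38.1% of all probe sets were called, so 5 of 10 is not far from the background. Brighter probe sets were called more often: of the 9285 above the median signal, 5586 were called when tested alone. The 38.1% is therefore a low yardstick for a list of bright genes. By direction, 3 of the 10 genes were called higher, against 20.9% of all probe sets, and 2 were called lower, against 17.2%. SNAI2 was the single gene of the set that was called and also changed by 1 log2 unit or more, as 6.47% of all probe sets did. The median log2 fold change of the 10 genes was 0.04, as it was over all probe sets (0.04).

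**Figure D1:**
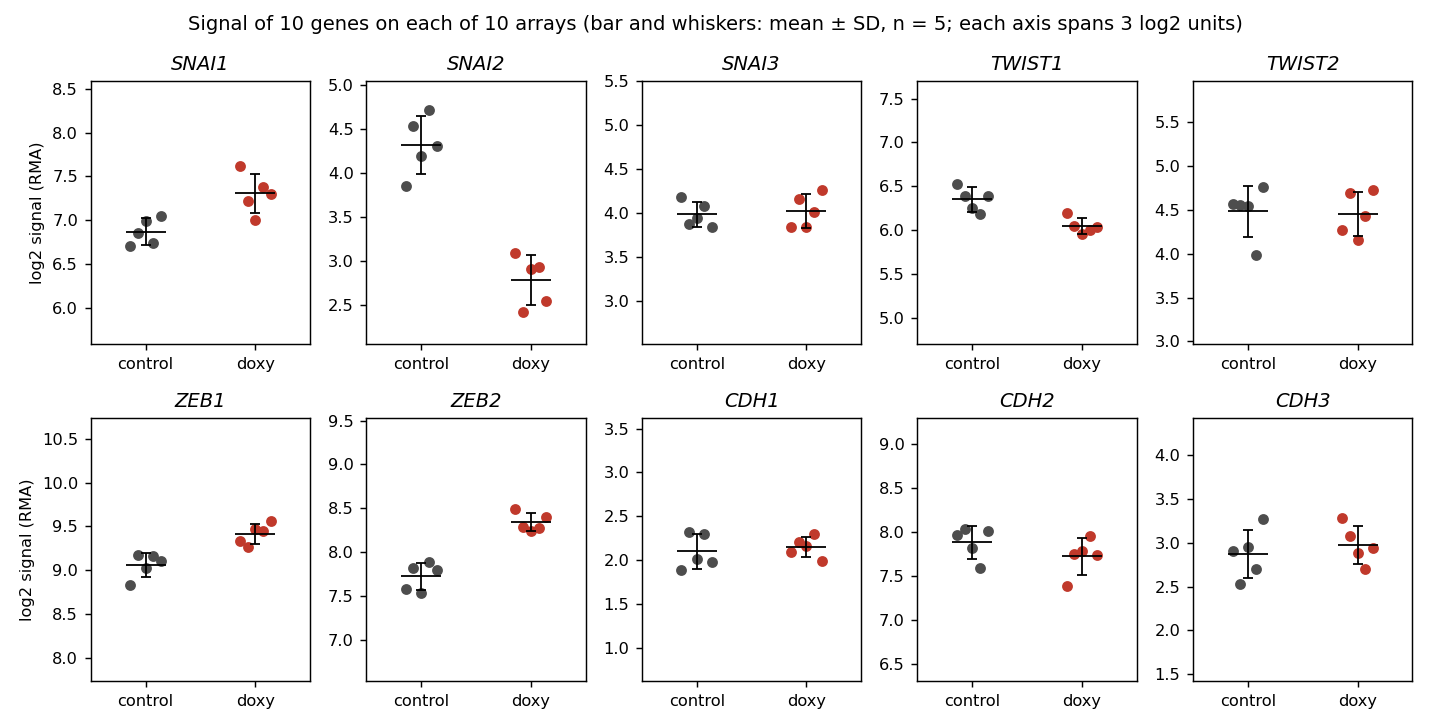
Log2 signal (RMA values, vertical axes, each spanning 3 log2 units) of the 10 genes on every array, with control arrays in grey and doxycycline arrays in red; bars and whiskers are the mean ± SD of 5 arrays. The groups of SNAI2, ZEB1 and ZEB2 are separate, and those of SNAI1 and TWIST1 overlap at their edges. Those of the other 5 genes overlap more widely, CDH2 with all 5 doxycycline arrays below the control median.

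All levels are log2 signals on the RMA scale. Because probe affinities differ, a level is read within a gene and not between genes. As a rough guide to background, 347 probe sets of olfactory receptor genes, which are silent in nearly all cells outside the nose, had a median signal of 1.96 and a 95th percentile of 3.10. By that guide CDH1 and CDH3 lay in the background range over the 10 arrays, and the other 8 genes lay above it, SNAI2 through its control arrays. In bulk RNA, fewer cells with a transcript and less of it per cell cannot be told apart. Median signal was 5.02 to 5.10 on the 10 arrays, arrays correlated at 0.990 to 0.997 within groups and 0.970 to 0.976 between them. How precise a value is depends on the number of arrays.

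The melanocyte identity of the line was checked on the same arrays. SOX10 (8.71 ± 0.13 in control, SD, n = 5), MITF (7.12 ± 0.07) and S100B (7.58 ± 0.08), which mark the lineage, had clear signal, and PAX3, the neural crest factor upstream of MITF, had 5.84 ± 0.20. The pigment genes PMEL (2.49 ± 0.16), MLANA (2.30 ± 0.14), TYR (1.83 ± 0.08) and TYRP1 (2.21 ± 0.26) lay in the background range, so the defining products of pigmented cells were not detected. Of these 8 lineage genes 4 were called higher (50%, against 20.9% of all probe sets). They were MITF, PAX3, S100B (to 7.84 ± 0.10) and TYR (to 2.05 ± 0.12, still in the background range). The calls of S100B and TYR were not kept in every alternative fit, where their adjusted p reached 0.0525 and 0.11 (limma). For the other cell types, 20.9% of all probe sets called higher is the share to set beside each list. Of 10 keratinocyte markers, relevant because keratinocytes express CDH1 and CDH3, 8 lay in the background range. From those 8, KRT5 was called higher (2.45 ± 0.29 to 2.84 ± 0.12), and it was the only marker of the list called (10%). Its adjusted p reached 0.0646 in the alternative fits (limma). The list's summed log2 level was 6.75 to 7.13 on the control arrays and 6.91 to 7.22 on the doxycycline arrays. Of 9 fibroblast markers 4 were called higher (44.4%), and the list's summed level was 6.82 to 7.01 against 7.60 to 7.72. The 4 were PDGFRA (4.52 ± 0.35 to 6.16 ± 0.13), LUM (3.45 ± 0.15 to 4.97 ± 0.18), DCN (3.40 ± 0.18 to 3.79 ± 0.25) and COL1A1 (4.43 ± 0.19 to 4.74 ± 0.18). Among the others, THY1 (2.16 ± 0.27 to 2.08 ± 0.24) and DPT (1.91 ± 0.13 to 2.05 ± 0.23) were in the background range in both groups. Of 8 endothelial markers 1, the receptor gene KDR, was called higher (12.5%). The summed level was 7.12 to 7.44 in control and 7.55 to 7.89 with doxycycline, and PECAM1, which defines the type, was in the background range (2.10 ± 0.10 and 2.16 ± 0.26). By the guide 4 of the 8 lay above background, KDR and 3 that were not called. These were VWF (3.58 ± 0.17 and 3.63 ± 0.21), EGFL7 (5.94 ± 0.21 and 5.70 ± 0.11) and ERG (3.78 ± 0.15 and 3.87 ± 0.17). Of 7 leukocyte markers 2 were called higher (28.6%), the lysozyme gene LYZ (6.87 ± 0.28 to 8.31 ± 0.25) and the monocyte gene CD14 (2.82 ± 0.12 to 3.34 ± 0.13). The summed level was 9.05 to 9.47 against 9.66 to 10.1. The lysosomal gene CD68 had strong signal in both groups (8.84 ± 0.16 and 9.04 ± 0.16), and the pan-leukocyte gene PTPRC was in the background range (2.15 ± 0.22 and 2.07 ± 0.30). By the guide 3 of the 7 lay above background, LYZ, CD68 and NKG7 (4.39 ± 0.15 and 4.46 ± 0.10, not called). The single markers named for other cell types were picked out after their values were seen.

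SNAI2, also called Slug, is a zinc-finger repressor needed for neural crest and melanocyte development. Its signal on the control arrays was 3.85, 4.53, 4.19, 4.73 and 4.31. On the doxycycline arrays it was 3.09, 2.42, 2.91, 2.93 and 2.55. Every doxycycline array lay below every control array, with a gap of 0.76 log2 units between the groups. The means were 4.32 ± 0.33 and 2.78 ± 0.28 (SD, n = 5), and the log2 fold change was -1.54 ± 0.16 (SE), larger in size than that of 97.7% of all probe sets. The adjusted p was 2.03e-06 (limma), and an exact two-sided permutation test over the arrays gave 0.00794, the smallest value that 5 against 5 arrays allow. The doxycycline mean was below the olfactory receptor guide of 3.10, where signals flatten out, so the fold change may understate the fall. The spread of SNAI2 between arrays of a group was larger than that of 95.3% of probe sets.

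SNAI1, or Snail, is the founding member of the family and a direct repressor of CDH1. It moved the other way. Control arrays read 6.71, 6.86, 6.99, 6.74 and 7.05, and doxycycline arrays read 7.62, 7.22, 7.004, 7.38 and 7.30. Of the doxycycline arrays 4 lay above the highest control array, and array 3 lay inside the control range. SNAI1 rose by 0.44 ± 0.11 log2 units (SE, n = 5 per group; limma adjusted p = 0.00638, exact permutation p = 0.0159). SNAI3, the least studied paralogue, read 4.18, 3.88, 3.95, 4.08 and 3.84 in control and 3.84, 4.16, 3.84, 4.01 and 4.27 with doxycycline. Its groups overlapped over nearly their whole range, and the 95% interval of its log2 fold change ran from -0.18 to 0.26.

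TWIST1 is a bHLH factor of the cranial neural crest that promotes invasion in melanoma. Its control arrays read 6.53, 6.39, 6.25, 6.18 and 6.39. Its doxycycline arrays read 6.20, 6.04, 5.96, 6.01 and 6.04, of which 4 lay below the lowest control array and array 1 lay just above it. TWIST1 fell by 0.30 ± 0.09 log2 units (SE, n = 5 per group; limma adjusted p = 0.0129, exact permutation p = 0.0159). TWIST2, its close paralogue in dermal mesenchyme, read 4.57, 4.55, 4.55, 3.99 and 4.76 in control and 4.27, 4.69, 4.15, 4.43 and 4.72 with doxycycline. The groups overlapped, control array 4 being the lowest of all 10, and the 95% interval was -0.34 to 0.28.

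ZEB2, a zinc-finger and homeodomain repressor that supports melanocyte differentiation, had control readings of 7.58, 7.82, 7.53, 7.89 and 7.79. With doxycycline it read 8.49, 8.29, 8.24, 8.27 and 8.41. All 5 doxycycline arrays lay above all control arrays, by at least 0.36 log2 units. ZEB2 rose by 0.62 ± 0.09 log2 units, from 7.72 ± 0.16 to 8.34 ± 0.10 (SD, n = 5; limma adjusted p = 6.88e-05, exact permutation p = 0.00794). Its paralogue ZEB1, which represses CDH1 through the same E-boxes, read 8.83, 9.17, 9.03, 9.16 and 9.11 in control. With doxycycline ZEB1 read 9.34, 9.27, 9.48, 9.45 and 9.56, again all above the controls, with a narrower gap of 0.10. ZEB1 rose by 0.36 ± 0.09 log2 units (limma adjusted p = 0.00507, exact permutation p = 0.00794, n = 5 per group). SNAI2, ZEB1 and ZEB2 were the 3 of 10 genes whose groups did not overlap, where 28.6% of all probe sets had groups that did not overlap.

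**Figure D2:**
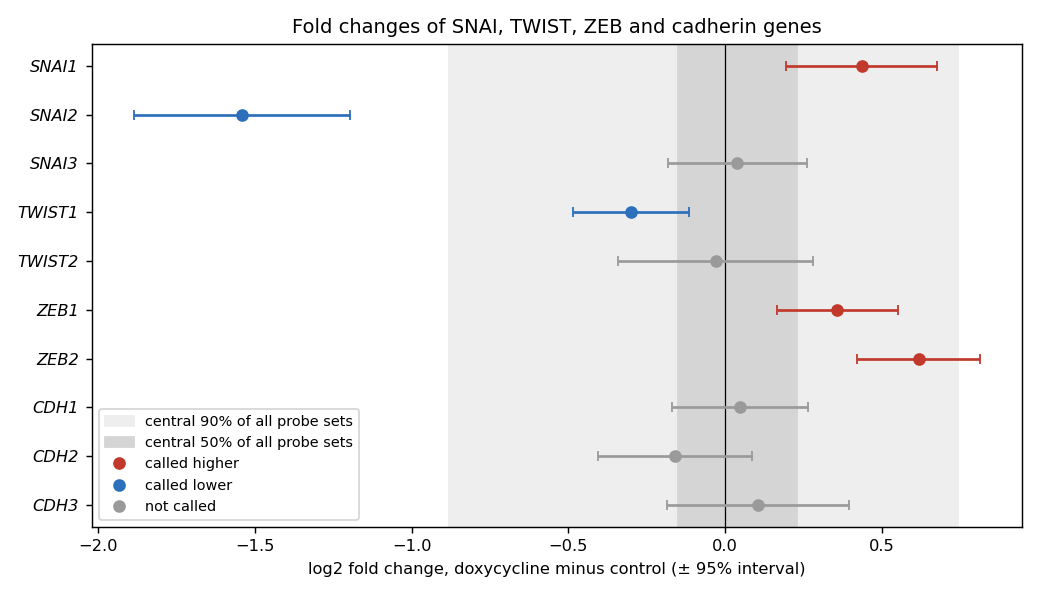
Log2 fold change of doxycycline over control (horizontal axis) with its 95% interval for each of the 10 genes, over shaded bands that hold the central 50% and 90% of all 18569 probe sets. SNAI2 lies at -1.54, outside the wider band; ZEB2 at 0.62, SNAI1 at 0.44, ZEB1 at 0.36 and TWIST1 at -0.30 lie between the bands, and the intervals of the other 5 genes cross 0.

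The upstream sequences of ZEB1 and ZEB2 are shown because both genes rose and because SNAI, TWIST, ZEB and MYC proteins all bind E-boxes. RefSeq windows (GRCh38.p14) from 250 bases before to 50 bases after annotated starts were at hand for 4 members, ZEB1 with 7 windows, CDH2 with 2, and ZEB2 and TWIST2 with 1 each. The bases before the start are printed for ZEB2, at chr2:144520120-144520369 on the minus strand, and for the ZEB1 window with most copies of CAGGTG, at chr10:31318966-31319215 on the plus strand. They run 5′ to 3′, and capitals mark the E-box motif CANNTG.
ZEB2: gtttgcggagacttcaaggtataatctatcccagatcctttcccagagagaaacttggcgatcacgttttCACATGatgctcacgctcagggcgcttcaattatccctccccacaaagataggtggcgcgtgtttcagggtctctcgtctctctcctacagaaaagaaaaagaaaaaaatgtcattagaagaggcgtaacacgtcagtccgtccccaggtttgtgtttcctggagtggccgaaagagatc
ZEB1: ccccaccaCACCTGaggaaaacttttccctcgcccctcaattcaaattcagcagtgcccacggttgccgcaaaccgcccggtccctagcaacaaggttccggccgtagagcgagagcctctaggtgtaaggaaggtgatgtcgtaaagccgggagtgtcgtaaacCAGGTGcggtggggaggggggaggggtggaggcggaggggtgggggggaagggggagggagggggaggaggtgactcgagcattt

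The ZEB2 window held 1 E-box, CACATG, beginning 180 bases before the start. The ZEB1 window held 3, beginning 242 and 85 bases before and 34 bases after the start, and all 3 read CAGGTG on one strand or the other, the form that SNAI and ZEB zinc fingers prefer. Another ZEB1 window held 1 CAGGTG, and the windows of ZEB2, TWIST2 and CDH2 held none. A further ZEB1 window also held 3 E-boxes, none of them CAGGTG. Searched on both strands, CAGGTG occurred in 20.6% of 35116 windows of all genes. The printed ZEB1 window was picked from 7 for its copies of CAGGTG, so that share is no comparison for it. CACGTG, the form that MYC and MAX prefer, was in none of the windows of the 4 members and in 7.26% of all windows. CAGGTG and CACGTG are both cases of CANNTG, which 68.7% of windows contained. These are matches of letters in short windows, and binding was not measured.

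Classical cadherins join neighbouring cells through calcium-dependent homophilic contacts and anchor to actin through catenins. None of CDH1, CDH2 and CDH3 was called. CDH1 read 1.88, 2.32, 2.02, 2.30 and 1.98 in control and 2.09, 2.21, 2.16, 2.30 and 1.99 with doxycycline, all within the background range. Its log2 fold change was 0.05 with a 95% interval of -0.17 to 0.27 (limma adjusted p = 0.759), so no change of E-cadherin RNA was detectable from a level at which the array may not register the gene. CDH3, the gene of P-cadherin found in basal epithelium, read 2.90, 2.53, 2.95, 2.70 and 3.27 in control and 3.28, 3.08, 2.88, 2.70 and 2.94 with doxycycline. Its interval ran from -0.18 to 0.40, and its 2 highest arrays, one from each group, were almost equal.

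CDH2, the N-cadherin gene and the usual cadherin of melanoma cells, had strong signal. Its control arrays read 7.97, 8.03, 7.82, 7.58 and 8.01, and its doxycycline arrays 7.39, 7.75, 7.78, 7.95 and 7.74. All 5 doxycycline arrays lay below the control median, but 4 of them lay inside the control range. The log2 fold change was -0.16 ± 0.11 (SE), with a 95% interval of -0.41 to 0.08 (limma adjusted p = 0.310, exact permutation p = 0.238, n = 5 per group). A small fall of N-cadherin RNA is not separated from no change by these arrays.

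The other cadherins that were called all rose, and their share was close to that of all probe sets. Of 18 measured genes for other cadherins, among them type II and 7-domain members, 6 rose and none fell (33.3% called, against 38.1% of all probe sets), and the median log2 fold change was 0.25 against 0.04 for all probe sets. Only 3 of the 18 lay above the median signal, and all 3 were called, beside 5586 of 9285 for all probe sets. CDH19, a type II cadherin of the Schwann cell and melanocyte lineages, rose from 8.21 ± 0.05 to 9.67 ± 0.11 (SD, n = 5), a log2 fold change of 1.46 ± 0.08 (SE). CDH10 (1.12 ± 0.13) and CDH6 (0.76 ± 0.10), both type II cadherins, rose from control signals of 3.04 and 2.97, just below the background guide of 3.10. CDH24, another type II member, rose by 0.75 ± 0.10 from 5.40 ± 0.20. The largest adjusted p among these 4 was 2.29e-05 (limma), and the other two genes called had smaller changes.

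**Figure D3:**
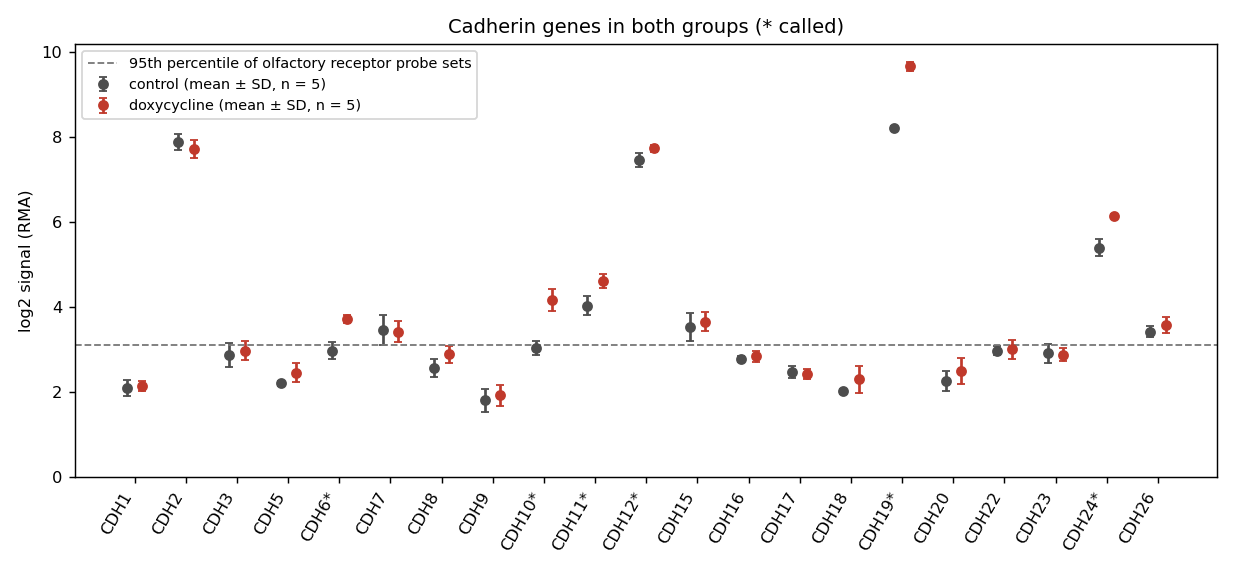
Log2 signal (mean ± SD, n = 5) of CDH1, CDH2, CDH3 and the 18 other cadherin genes measured, in control (grey) and doxycycline (red); an asterisk marks a called gene, and the dashed line is the olfactory receptor guide at 3.10. CDH1 and CDH3 sit below the line in both groups, CDH2 is well above it with overlapping groups, and CDH19 shows the widest separation; levels of different genes are not comparable.

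Most of the called genes that link cadherins to the cytoskeleton rose. Of 18 catenins, nectins and their partners 8 rose and 1 fell (50% called, against 38.1% of all probe sets), with a median log2 fold change of 0.12. Above the median signal 8 of 12 were called, beside 5586 of 9285 for all probe sets. LIMA1, which ties the cadherin-catenin complex to actin, rose by 1.02 ± 0.09 (SE), and PLEKHA7, a junction protein that binds p120-catenin, by 0.84 ± 0.17. JUP, the gene of plakoglobin, shared by cadherin junctions and desmosomes, rose by 0.66 ± 0.10, and the adhesion receptor NECTIN3 by 0.62 ± 0.07. PKP4, an armadillo protein of the p120 family, fell by 0.51 ± 0.10 log2 units. Adjusted p-values of these 5 genes were at most 0.00110 (limma), and PLEKHA7 varied more on the doxycycline arrays (3.95 ± 0.47) than in control (3.11 ± 0.06).

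Epithelial genes of the kind that SNAI and ZEB factors are known to repress were called less often than all probe sets, and many were dim. Of 36 measured, 7 rose and 2 fell (25% called, against 38.1% of all probe sets), and 13 lay in the background range, among them the adhesion molecule gene EPCAM at 2.26 in control and 2.32 with doxycycline and the epithelial regulator GRHL2 at 2.38 in both groups; EPCAM and GRHL2 were picked out after their values were seen. In the background range 1 of 13 was called. Above it 8 of 23 were called, where the 38.1% covers all probe sets at any signal. Among probe sets above the median signal, 4 of 10 epithelial genes were called, beside 5586 of 9285 for all probe sets. The median log2 fold change of the epithelial list was 0.07. The mucin gene MUC1 rose from 3.76 ± 0.19 to 5.04 ± 0.23 (SD, n = 5), and SPINT1, an inhibitor of epithelial proteases, rose from 3.95 ± 0.21 to 5.14 ± 0.18. Desmoplakin, DSP, the anchor of desmosomes, rose by 1.05 ± 0.11 (SE). The fallers were MAL2, a membrane protein of polarised transport (-1.24 ± 0.14), and ESRP1, an epithelial splicing regulator (-0.44 ± 0.08), whose control signal of 2.62 was in the background range. The adjusted p of these 5 genes was at most 4.67e-04 (limma). JUP belongs to this list too.

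Mesenchymal genes mostly rose. Of 32 measured, 19 rose and 1 fell (62.5% called, against 38.1% of all probe sets), with a median log2 fold change of 0.35. Those above the median signal were called in 17 of 22 cases, beside 5586 of 9285 for all probe sets. Fibronectin, FN1, rose from 5.78 ± 0.18 to 8.17 ± 0.10 (SD, n = 5), and the fibrillar collagen gene COL5A2 from 6.05 ± 0.17 to 7.57 ± 0.04. The integrin subunit ITGAV rose by 1.20 ± 0.11 (SE), and the growth factor receptor PDGFRB by 1.16 ± 0.10. AXL, a receptor kinase of drug-resistant and invasive melanoma, was the one that fell, by 0.63 ± 0.08 log2 units. All 5 had adjusted p-values of at most 2.29e-05 (limma). The fibroblast markers given above moved with this list, 3 genes being on both (COL1A1, COL1A2 and THY1), and their part in it was not tested.

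**Figure D4:**
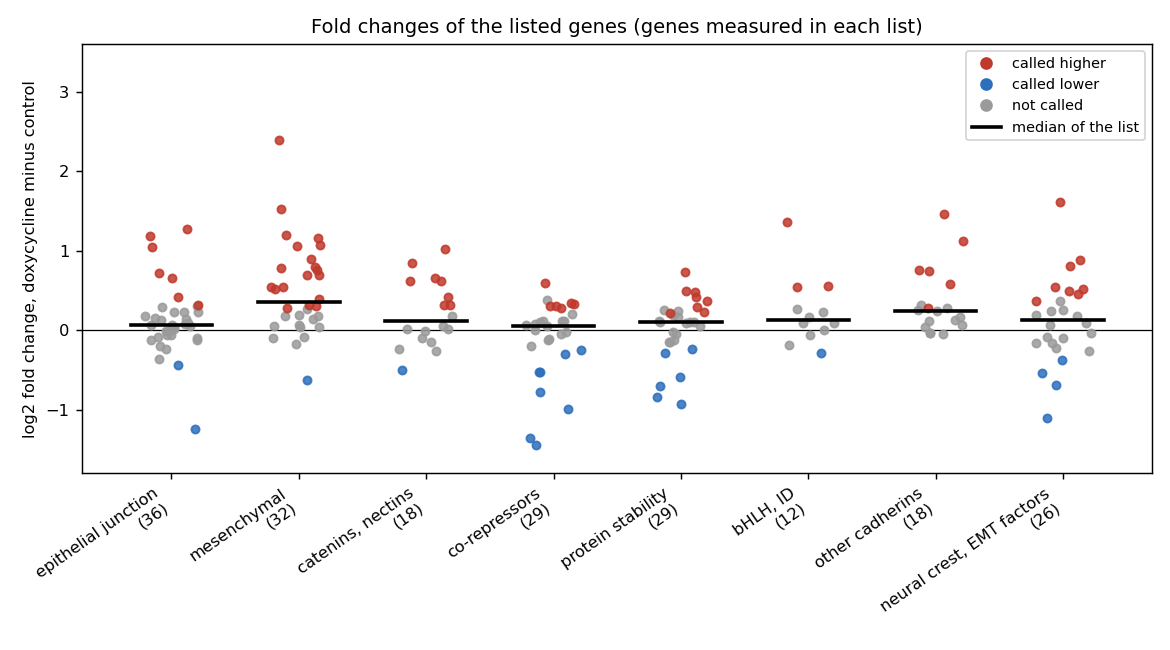
Log2 fold change of doxycycline over control (vertical axis) for each measured gene of 8 lists, red where called higher, blue where called lower and grey where not called; black bars are list medians. The mesenchymal list has the highest median, 0.35, the epithelial list sits near 0 at 0.07, and the co-repressor list spreads in both directions around 0.05.

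SNAI and ZEB factors repress through recruited enzymes, and the genes of those partners went both ways. Of 29 co-repressor and chromatin genes 6 rose and 8 fell (48.3% called, against 38.1% of all probe sets), with a median log2 fold change of 0.05. Most of these genes are bright, and above the median signal 17 of 27 were called, close to the 5586 of 9285 for all probe sets. CTBP1, the co-repressor that ZEB1 and ZEB2 bind directly, fell from 7.51 ± 0.15 to 6.06 ± 0.17 (SD, n = 5), a log2 fold change of -1.45 ± 0.10 (SE). EZH2, the histone methyltransferase of Polycomb complex 2, fell by 1.36 ± 0.10. SMARCA4, the BRG1 ATPase, fell by 0.99 ± 0.09, and SUV39H1, which methylates histone H3 for heterochromatin, fell by 0.77 ± 0.10. The adjusted p of these 4 genes was at most 1.31e-05 (limma). Among the 6 that rose, picked out after their values were seen, were CTBP2, the paralogue of CTBP1 (0.30 ± 0.08), and PHF21A, a subunit of the KDM1A demethylase complex (0.59 ± 0.11), with adjusted p-values of 0.0101 and 5.47e-04 (limma).

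SNAI and TWIST proteins are short-lived, and the array reads RNA, so genes of enzymes that mark such factors for destruction or protect them were counted as well. Of 29 such kinases, phosphatases, ubiquitin ligases and deubiquitinases 8 rose and 6 fell (48.3% called, against 38.1% of all probe sets), with a median of 0.10. Here too 17 of 27 above the median signal were called, close to the 5586 of 9285 for all probe sets. AKT1, a kinase that restrains GSK3 and so protects SNAI1, fell by 0.93 ± 0.09 (SE). FBXO45, a ubiquitin ligase subunit, fell by 0.84 ± 0.11, PSMD14, the deubiquitinase of the proteasome lid, fell by 0.71 ± 0.09, and LATS2, a Hippo pathway kinase, rose by 0.73 ± 0.08. Among these genes the adjusted p was at most 1.31e-05 (limma). The list mixes enzymes of opposite effect, so its count gives no direction for the proteins, whose levels were not measured.

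TWIST factors bind DNA with E proteins, which ID proteins trap. Of 12 bHLH partners and ID inhibitors 3 rose and 1 fell (33.3% called, against 38.1% of all probe sets), with a median log2 fold change of 0.13. Only 5 of the 12 lay above the median signal, and 4 of those were called, beside 5586 of 9285 for all probe sets. ID3 rose from 6.13 ± 0.15 to 7.49 ± 0.13 (SD, n = 5), and ID1 from 7.24 ± 0.19 to 7.80 ± 0.18. The E protein TCF4 rose by 0.55 ± 0.08 (SE) and the E protein TCF3 fell by 0.28 ± 0.09, with adjusted p-values of 3.29e-05 and 0.0171 (limma).

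Among 26 other transcription factors of the neural crest and of epithelial-mesenchymal transition 8 rose and 4 fell (46.2% called, against 38.1% of all probe sets), with a median of 0.13. The factors above the median signal numbered 15, of which 12 were called, beside 5586 of 9285 for all probe sets. RUNX2, a skeletal factor active in invasive melanoma, rose by 1.62 ± 0.09 (SE). The neural crest factor PAX3, by 0.88 ± 0.12, and the mesenchymal homeobox factor PRRX1, by 0.80 ± 0.08, rose too. ETS1, which acts below MAPK signalling and can induce ZEB genes, fell by 1.11 ± 0.10. FOXC2, a forkhead inducer of the mesenchymal state, fell by 0.69 ± 0.13, with overlapping groups. TFAP2B fell by 0.54 ± 0.08 and TFAP2A, an AP-2 factor of the melanocyte lineage, by 0.38 ± 0.09. The adjusted p of these 7 genes was at most 0.00435 (limma). In the same cells MITF rose by 1.21 ± 0.08, while SOX10 had a log2 fold change of 0.19 ± 0.09 and was not called (adjusted p = 0.102, limma), but passed with trended and robust variances (adjusted p = 0.045, limma); over all alternatives its adjusted p ran from 0.045 to 0.224.

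Over the 10 arrays, the profiles most like that of SNAI2, each gene taken relative to its control mean, belonged to NEIL3, a DNA glycosylase, CHAF1A, a chromatin assembly factor, FAM27E3 and the kinase gene STK39. Their root mean square distances from SNAI2 were 0.144, 0.191, 0.193 and 0.195 log2 units among 17510 probe sets compared. The log2 fold changes of these 4 genes were -1.46, -1.54, -1.60 and -1.42. Since all arrays belong to 2 groups that differ in many genes, likeness here mostly restates a fall of similar size.

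The 5 called genes kept their direction under the other filters, scalings, models and fits without 1 array that were run for each. SNAI2 ranged from -1.66 to -1.44, ZEB2 from 0.57 to 0.66, SNAI1 from 0.34 to 0.51, ZEB1 from 0.30 to 0.40 and TWIST1 from -0.34 to -0.25. SNAI2 was too dim to be tested where probe sets under the median signal were left out. That filter left 5 members, 4 of them called, beside 5586 of 9285 for all probe sets. With a minimum log2 fold change of 1 added, SNAI1, TWIST1, ZEB1 and ZEB2 lost their calls. In the fits without that minimum each of the called genes kept its call, and the highest adjusted p was 0.0392, for TWIST1 (limma). The genes not called varied more relative to their size. CDH2 ranged from -0.24 to -0.077 and CDH3 from 0.022 to 0.21, and SNAI3, TWIST2 and CDH1 changed sign.

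**Figure D5:**
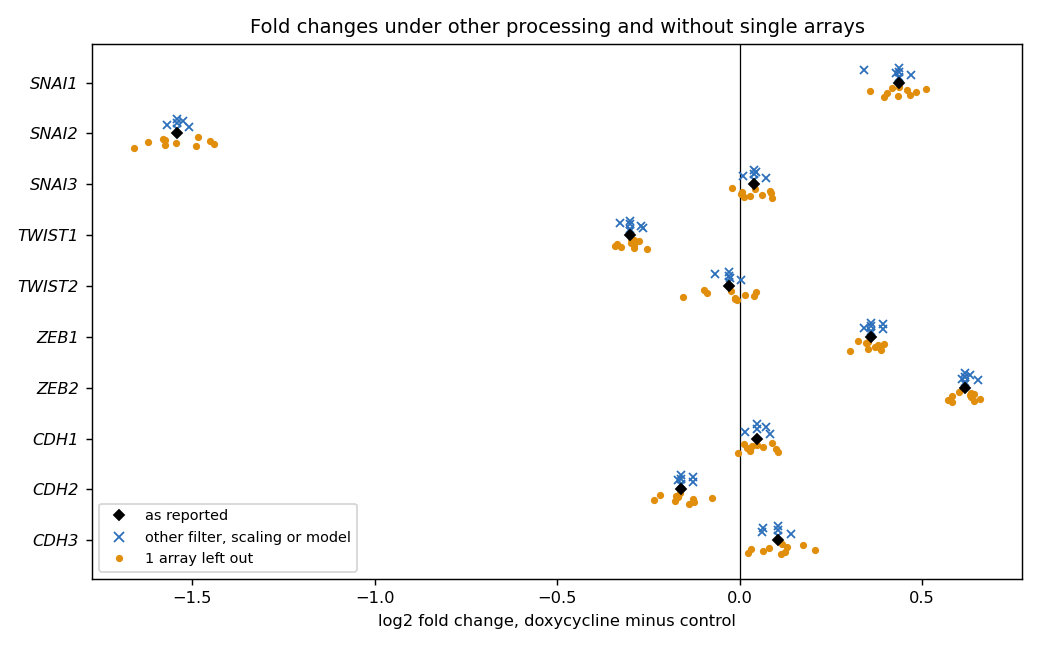
Log2 fold change (horizontal axis) of each of the 10 genes as reported (black diamonds), under other filters, scalings and models (blue crosses) and with 1 array left out (orange points). The 5 called genes stay on their side of 0, while TWIST2 crosses it, from -0.15 to 0.05, as do SNAI3 and CDH1.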

How the data were processed

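Total RNA of 10 A375 samples was hybridised to Clariom S arrays. The authors deposited log2 values of 18569 probe sets that they had made with RMA (background correction, quantile normalization, probe set summary) per the submitters' processing notes; its version and any filter were not stated there. RMA makes fold changes relative to other genes of an array and flattens them near background. Symbols came from the platform annotation (17511 probe sets with 1 symbol, 1058 unnamed), and promoter windows from RefSeq GRCh38.p14. Groups were compared in limma 3.58.1 (R 4.3.3) by lmFit and eBayes (group as the only term, no filter, two-sided, Benjamini-Hochberg over all 18569 probe sets), and the fit was tested on simulated data. There it recovered 2% of changes of 0.25 log2 units, 54% of 0.5 and 98% of 1, so small changes can go uncalled. Far fewer probe sets were changed in the simulation than were called here, so these shares need not hold for the real arrays. Fold changes carry moderated standard errors. Exact permutation tests were run on the 10 members. Members and gene lists were chosen with earlier results of these data known. From each list up to 4 called genes by size of change were named, or all called in a direction where at most 5 were. Other markers and genes named were chosen after their values were seen, where stated. The olfactory receptor guide was also added after the data were seen. Same-numbered samples did not deviate together, so no pairing was used. Alternatives were filters on dim probe sets, 2 scalings, 2 variance models, a replicate block, a fold minimum and leaving out each array.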

Additional observations from a re-analysis of the deposited data

Results flagged for a closer look

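In 150 groups of 5 arrays (75 named genes, both groups), 10 had an array set far apart from the other 4, where chance gives about 1 in 20. TWIST2 read 3.99 on control array 4 against 4.55 to 4.76 on the other controls. MAL2 read 7.63 on control array 2 against 7.27 to 7.37. JUP read 5.87 on control array 2 against 5.40 to 5.46. SUV39H1 read 8.07 on control array 4 against 7.60 to 7.69. LIMA1 read 9.72 on doxycycline array 1 against 9.93 to 10.01. PDGFRA read 3.91 on control array 1 against 4.58 to 4.80, and PECAM1 read 2.28 on control array 1 against 2.05 to 2.07. LUM read 3.71 on control array 1 against 3.36 to 3.42, DCN read 3.09 on control array 5 against 3.40 to 3.51, and CD68 read 9.32 on doxycycline array 1 against 8.93 to 9.04.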

How the results depend on the processing

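Of 180 counts of called genes (10 counts, 18 alternatives), 168 were within 1.5 times the reported count. A minimum log2 fold change of 1 cut all probe sets called to 1202 (452 higher, 750 lower), the SNAI, TWIST, ZEB and cadherin genes to 1 (SNAI2), epithelial genes to 4, mesenchymal genes to 6, catenins and partners to 1, co-repressors to 2, protein stability genes to 0 (by limma, where 14 passed without the minimum), bHLH and ID genes to 1, other cadherins to 2 and other transcription factors to 2. Above the median signal 4 epithelial genes and 3 other cadherins were called, because fewer were tested. Each of the 10 members kept its side of the threshold in every fit without 1 array. Signs turned for genes not called: with array medians subtracted for TWIST2 (0.0039) and GRHL2 (0.029), with array weights for TYRP1 (0.068) and PECAM1 (-0.00054), and in fits without 1 array, where SNAI3 ranged from -0.022 to 0.087, TWIST2 from -0.15 to 0.045, CDH1 from -0.0055 to 0.10, TYRP1 from -0.13 to 0.039, THY1 from -0.17 to 0.010, PECAM1 from -0.044 to 0.12, EPCAM from -0.0084 to 0.15 and GRHL2 from -0.069 to 0.057; the cause was not tested. With the replicate number as a block, 5 members were called, as without it; the correlation of same-numbered samples' deviations was -0.44 to -0.01. Depth here means signal over background: CDH1 and CDH3, and SNAI2 with doxycycline, lie in the background range.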
